A study of Rattus norvegicus with 3 samples.

Results

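The genes described are 9 components of transforming growth factor beta (TGF-beta) signalling and the CCN matricellular proteins, out of 17937 named genes on a rat kidney array. They were found by gene symbol among the non-control probes of the scanner files, which carry Ccn2 under its older name Ctgf and Ccn1 as Cyr61, and they are represented by 12 probes. Ccn2 and Tgfb1 each have 1 probe printed on 10 spots, Tgfb2 has 3 probes, Tgfbr2 has 2, and every probe outside Ccn2 and Tgfb1 has 1 spot.

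The kidneys came from male spontaneously hypertensive rats, a strain bred on a Wistar background that becomes hypertensive without surgery or drugs. The animals were 8 to 10 weeks old and weighed 280 to 330 g, and each group held 10 rats. The control group was given water by mouth for 4 weeks, the low-dose group a blue mussel protein hydrolysate (HBMP) at 10 mg/kg per day, and the high-dose group the same hydrolysate at 20 mg/kg per day. Equal amounts of RNA from 4 rats per group were mixed and read on 1 array with 1 dye, so the data hold 3 arrays and no replicate animals. All animals were of this hypertensive strain, and no normotensive strain was analysed here.

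TGF-beta is secreted in a latent complex and is freed by integrins and by matricellular proteins such as thrombospondin 1. It binds a type II receptor that recruits a type I receptor, which phosphorylates Smad proteins that enter the nucleus. In the kidney the pathway is known for driving matrix deposition in fibrosis, with CCN2 as one of its best known downstream genes, and BMP7 is known for opposing it in the tubules.

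Among the 7 genes whose representative probe was above background on both arrays, Ccn2 was the only one to differ by at least 2-fold in any comparison. Its signal on the high-dose array was 42.3% of that on the control array and 47.1% of that on the low-dose array. The ligands Tgfb1 and Tgfb2 and the activator Thbs1 gave dim signals, the receptors Tgfbr1 and Tgfbr2 and the inhibitor Smad7 stayed within 1.34-fold of control, and Bmp7 was below control at both doses by less than 2-fold. Ccn1, the closest relative of Ccn2 on this list, lay in the other direction, above control at both doses.

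The promoters of Ccn2 and Ccn1 are shown because these were the lowest and the highest of the measured genes on the high-dose array against control. Both genes are textbook targets of YAP and TAZ, coactivators that reach DNA through TEAD factors, and both respond to TGF-beta. The sequences are the 250 bases before the annotated start in RefSeq (build GRCr8), printed 5' to 3' along the gene. Capitals mark the TEAD core GGAATG or its reverse complement CATTCC. The Ccn2 window is chr1:22624615-22624864 and the Ccn1 window chr2:237225690-237225939, both on the minus strand.
Ccn2: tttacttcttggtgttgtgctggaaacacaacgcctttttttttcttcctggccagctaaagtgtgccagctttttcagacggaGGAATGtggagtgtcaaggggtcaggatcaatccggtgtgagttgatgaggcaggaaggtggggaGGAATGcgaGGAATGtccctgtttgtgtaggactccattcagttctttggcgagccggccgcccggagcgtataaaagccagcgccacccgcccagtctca
Ccn1: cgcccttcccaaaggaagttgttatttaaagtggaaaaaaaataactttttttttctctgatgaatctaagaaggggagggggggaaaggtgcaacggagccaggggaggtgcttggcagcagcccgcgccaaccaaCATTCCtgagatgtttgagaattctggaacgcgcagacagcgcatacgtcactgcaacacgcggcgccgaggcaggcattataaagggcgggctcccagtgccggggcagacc
In the Ccn2 window the core occurred 3 times in its forward form, beginning 166, 101 and 92 bases before the start. In the Ccn1 window it occurred 1 time in its reverse form, beginning 113 bases before the start. The Smad-binding element CAGAC, searched with its reverse complement GTCTG, was found 1 time for Ccn2 and 2 times for Ccn1, and did not overlap a TEAD core. RefSeq windows were matched for 8 of the 9 genes, and Bmp7 had no entry in the table used. Thbs1 had 1 TEAD core beginning 47 bases before its start, and the other 5 matched genes had neither motif in these windows.

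Such short motifs are common. Of 33469 promoter windows of the same length, 12.1% held at least 1 TEAD core on either strand, 0.902% held at least 2 and 0.0807% at least 3. The CAGAC element was present in 42.9% of windows, and 11.5% held it at least 2 times. These matches describe letters in a window and were not measured as binding sites.

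Signals are given as net spot intensity scaled so that the 75th percentile of all probes was equal on the 3 arrays. A probe counted as above background where its signal was 3 times the noise or more in 50% of its spots or more. On the control array 50.4% of 30367 probes met this limit, against 52.0% for the low dose and 54.7% for the high dose. Intensities of a gene were compared between arrays by the same probe, and genes were not ranked by intensity. Summed signals of marker lists, given below, are set mostly by their brightest probes. With 1 pool per group there was no test of any difference, and a size rule of 2-fold between probes above background on both arrays took its place. The arrays shared 1 slide, and dose and place on it cannot be told apart. The labelled tissue was borne out by its markers, since Umod of the thick ascending limb, Slc34a1 of the proximal tubule, Aqp2 of principal cells and Nphs1 of podocytes were above background on every array.

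Over all genes, 2.49% of 9733 were at least 2-fold higher at the low dose than in control and 0.668% lower. For the high dose against control these shares were 0.849% and 0.152% of 9890 genes, and between the doses, high against low, 0.464% and 1.47% of 10136 genes. Of the 9 genes, 7 were above background on both arrays in each comparison, the exceptions being Tgfb1 and Thbs1. At the low dose against control 0 of these 7 passed the size rule. The high dose had 0 at least 2-fold higher and 1 lower, both against control and against the low dose, and each time it was Ccn2. A share of 7 genes moves in large steps, so 1 of 7 is not read against these percentages.

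The median difference of the 7 genes was -0.20 (log2) at the low dose against control and -0.29 at the high dose against control, beside -0.11 and -0.04 over all genes. Between the doses, high against low, it was -0.07, beside 0.04 over all genes. Both doses were set against the same control array, so the first pair of medians shares its denominator. In either comparison with control, Ccn1 was the only measured gene of the 9 above 0. Over all genes, 64.3% lay below 0 at the low dose against control and 56.4% at the high dose against control.

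**Figure D1:**
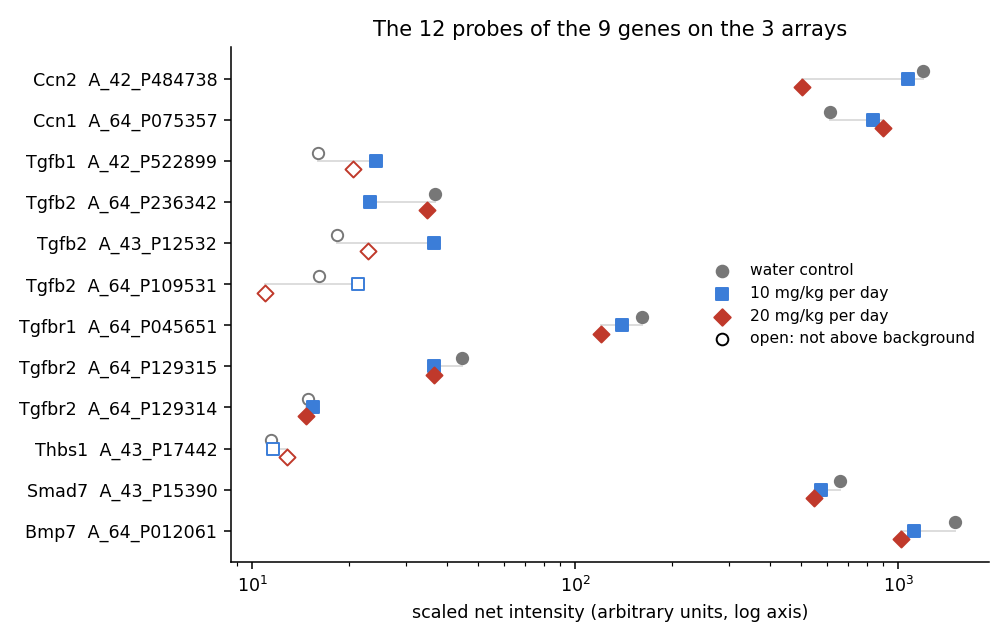
Scaled net intensity (arbitrary units, log axis) of the 12 probes of the 9 genes by array (control, low dose, high dose). Filled symbols are above background and open symbols are not. The high-dose value of Ccn2, 504.2, stands apart from 1192 in control and 1071 at the low dose, and the Tgfb1, Tgfb2, Tgfbr2 and Thbs1 probes lie at the dim end.

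Tgfb1 encodes TGF-beta 1, the isoform most studied in renal fibrosis. Its 10 spots averaged 15.9 ± 5.47 units in control, 24.1 ± 5.19 at the low dose and 20.5 ± 3.29 at the high dose (SD over spots, a technical spread). Of these spots, 0 exceeded the noise limit in control, 7 at the low dose and 4 at the high dose, so the probe was above background at the low dose alone. The low-dose reading was 1.51-fold that of control and 1.18-fold that of the high dose. Those other arrays were not above background, so these ratios of measured values are not lower bounds. No fold is given for the high dose against control, since neither array was above background. Each low-dose spot was higher than the spot at the same place on the control array, by 0.03 to 1.52 (log2). The authors' deposited table gave 0.63 for the low-dose difference from control. That difference was 0.78 with quantile normalization and 0.04 with normexp, a background correction that adds an offset to every spot. As the control array was not above background, no difference between arrays is called for Tgfb1.

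Tgfb2 encodes the second TGF-beta isoform, and its 3 probes did not give 1 direction. The probe above background on all arrays read 36.7 units in control, 23.1 at the low dose and 34.8 at the high dose. This is -0.66 (log2) at the low dose against control, -0.08 at the high dose against control and 0.59 between the doses, high against low. Another probe read 18.4 units in control, 36.7 at the low dose and 22.9 at the high dose, and was above background at the low dose alone. Its low-dose reading was 1.998-fold that of control, a ratio of measured values and not a lower bound. The authors' deposited table gives 1.32 (log2) for that difference. The remaining probe read 16.1, 21.2 and 10.99 units in the same order and was not above background on any array. The low dose was thus the lowest array by 1 probe and the highest by the other 2. No difference between arrays is called for Tgfb2.

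Thbs1 encodes thrombospondin 1, which frees TGF-beta from its latent complex. Its only probe read 11.5 units in control, 11.6 at the low dose and 12.8 at the high dose and was not above background on any array. No fold is given for it. Of its relatives, Thbs2 was not above background on any array, and Thbs4 read 55.0 units in control, 52.1 at the low dose and 39.4 at the high dose, a range within 2-fold.

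Tgfbr1, the type I receptor kinase that phosphorylates Smad2 and Smad3, read 160.5 units in control, 139.9 at the low dose and 120.0 at the high dose. The differences from control were -0.20 (log2) at the low dose and -0.42 at the high dose. Under the other ways of processing that were tried, the difference at the high dose lay between -0.44 and -0.30. Of 9890 genes, 10.5% lay lower than Tgfbr1 in that comparison.

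Tgfbr2, the type II receptor that binds the ligand, read 44.7 units in control, 36.7 at the low dose and 36.6 at the high dose. It stood at -0.29 (log2) against control at each dose. A second probe of Tgfbr2 was above background at both doses but not in control, with 14.9 units in control, 15.4 at the low dose and 14.7 at the high dose. Neither receptor reached 2-fold in any comparison.

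Smad7 encodes the inhibitory Smad that TGF-beta itself induces and that blocks the type I receptor. It read 659.4 units in control, 575.0 at the low dose and 547.9 at the high dose, or -0.20 and -0.27 (log2) against control. Its position among all genes was unremarkable, with 36.8% of genes lower at the low dose and 22.7% lower at the high dose.

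Bmp7 encodes bone morphogenetic protein 7, made by tubule cells and podocytes in the adult kidney. It read 1495 units in control, 1122 at the low dose and 1023 at the high dose. These were 75.03% of control at the low dose and 68.4% at the high dose, differences of -0.41 and -0.55 (log2) that did not reach 2-fold. In the comparison at the high dose 4.80% of genes lay lower than Bmp7. The probe has 1 spot, so no spread between spots is available for it. Markers of the proximal tubule and of podocytes were also below control. All 7 proximal tubule markers were lower at both doses, with medians of -0.40 at the low dose and -0.54 at the high dose and summed signals of 111800 units in control, 78060 at the low dose and 80260 at the high dose. Of the 6 podocyte markers above background, 6 were lower at the low dose and 5 at the high dose. These counts stand beside 64.3% of all genes below control at the low dose and 56.4% at the high dose. Other tubule lists varied. Distal convoluted tubule markers, 2 above background, were lower at both doses, with medians of -0.30 at the low dose and -0.62 at the high dose. The 4 intercalated cell markers were all lower at the low dose, with medians of -0.38 there and -0.04 at the high dose. Principal cell markers had medians of 0.85 at the low dose and 0.62 at the high dose, with summed signals of 15880 units in control, 38230 at the low dose and 24750 at the high dose. Thick ascending limb markers had medians of -0.68 at the low dose and 0.08 at the high dose. Their summed signals were 44890 units in control, 32700 at the low dose and 38090 at the high dose. The part of these markers in the Bmp7 values was not tested. In whole kidney RNA, fewer cells of a type and less RNA per cell cannot be told apart.

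Ccn2 encodes connective tissue growth factor, a secreted matricellular protein that TGF-beta and YAP induce. Its 10 spots ranged from 980.5 to 1514 units on the control array, with a median of 1165. On the low-dose array they ranged from 905.9 to 1236 with a median of 1048, and on the high-dose array from 414.1 to 598.3 with a median of 499.8. The spots of the high-dose array did not overlap those of either other array, whereas the low-dose and control spots overlapped. The probe means were 1192 ± 163 units in control, 1071 ± 119 at the low dose and 504.2 ± 60.9 at the high dose (SD over 10 spots).

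Ccn2 on the high-dose array was 2.36-fold lower than in control, a difference of -1.24 (log2). Each of the 10 spots was lower than the spot at the same place on the control array, by -1.34 to -1.12. Only 3 of 9890 genes lay lower. Among the 1114 probes printed on 10 spots and above background on both arrays, Ccn2 was the only one at least 2-fold lower, and 6 were at least 2-fold higher. Background correction by normexp gave -1.10, and the authors' deposited table gave -1.31.

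Against the low dose, Ccn2 at the high dose was 2.12-fold lower, at -1.09 (log2), and all 10 spot pairs lay between -1.15 and -1.03. Here 111 of 10136 genes lay lower, and 23 of 1136 probes with 10 spots were at least 2-fold lower. With normexp the difference was -0.995 after 75th percentile scaling and -0.99 after quantile normalization, both just short of 2-fold. At the low dose against control Ccn2 stood at -0.15, with all 10 spot pairs below 0, between -0.29 and -0.03, beside a median of -0.11 over all genes. The low-dose value was thus close to the shift of the whole array, and the drop in Ccn2 signal lay between the low and the high dose. The spots measure 1 pool of RNA each time, so their spread says nothing of the spread between rats.

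**Figure D2:**
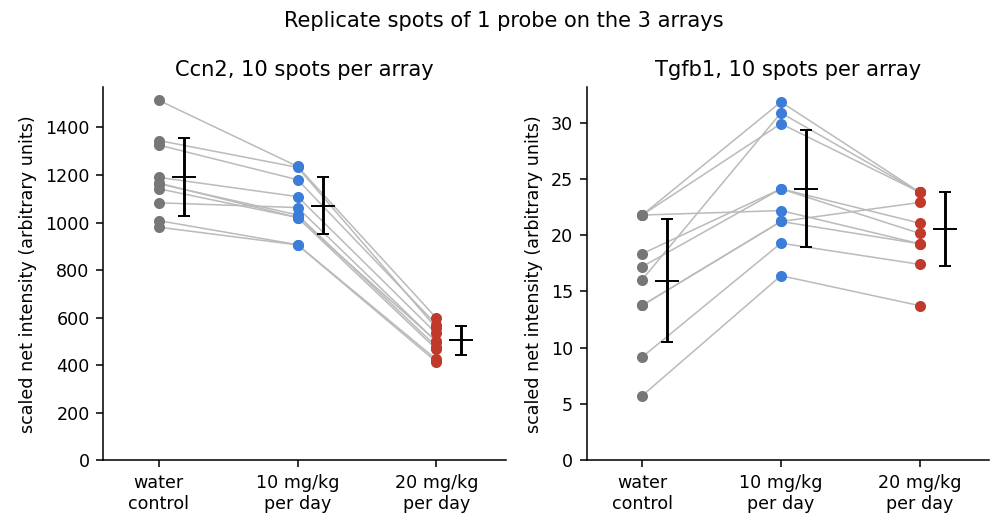
Scaled net intensity (arbitrary units, axes from 0) of the 10 spots of the Ccn2 and Tgfb1 probes, by array (control, low dose, high dose). Grey lines join spots at the same place, and bars give the mean and SD over spots. The high-dose spots of Ccn2 lie between 414.1 and 598.3 and the control spots between 980.5 and 1514, whereas the Tgfb1 spots of the 3 arrays overlap.

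Ccn1 encodes CYR61, a matricellular protein that binds integrins and is induced rapidly by growth factors. It read 614.7 units in control, 838.3 at the low dose and 898.8 at the high dose. This was 1.36-fold above control at the low dose and 1.46-fold at the high dose, or 0.45 and 0.55 (log2), and under the other ways of processing the high-dose value stayed between 0.53 and 0.63. Of 9890 genes 4.29% lay higher at the high dose. The probe has 1 spot and did not reach 2-fold in any comparison. Of the other CCN genes, Ccn4, a Wnt-induced member, read 80.3 units in control, 96.5 at the low dose and 44.0 at the high dose, which is -0.87 (log2) against control and -1.13 against the low dose. With normexp these became -0.53 and -0.65. Ccn3, Ccn5 and Ccn6 were not above background on any array.

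**Figure D3:**
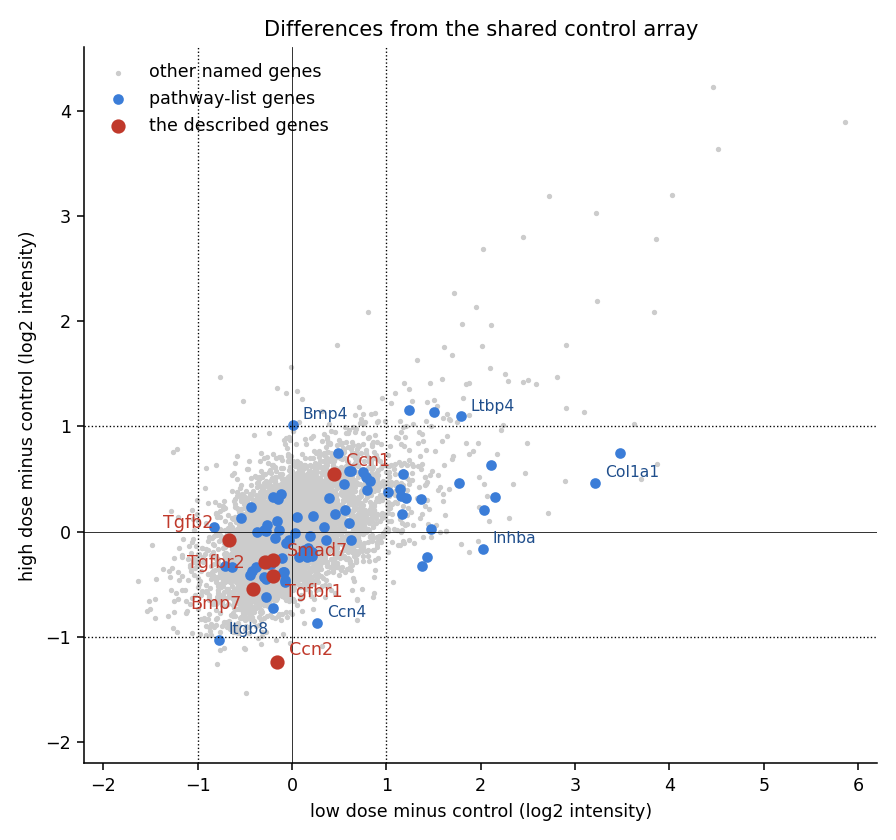
Difference of each gene above background on all 3 arrays at the low dose (horizontal) and at the high dose (vertical) from the shared control array, in log2 units. Dotted lines mark 2-fold. Ccn2 lies at -0.15 and -1.24, below nearly all genes on the vertical axis, Ccn1 lies at 0.45 and 0.55, and Col1a1 lies far to the right at a low-dose difference of 3.21.

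The genes whose pair of differences from control lay nearest to that of Ccn2, by Euclidean distance on the log2 scale among 9640 genes, were Eif1a, Txnl4b, Tdg, Rbm15b and Sgk1. Their distances ran from 0.04 to 0.27. Eif1a, a translation initiation factor, read 199.5 units in control, 179.4 at the low dose and 87.0 at the high dose. Sgk1, a kinase induced by serum and glucocorticoids that regulates sodium channels in the collecting duct, read 982.8 units in control, 917.5 at the low dose and 500.3 at the high dose. Each of these 5 genes has 1 spot. Of the 9640 genes, 5 were lower by 2-fold or more on the high-dose array than on both other arrays, namely Ccn2, Bcl6, Eif1a, Map3k6 and Tdg.

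The wider pathway was followed in 10 lists that hold 141 genes, 134 of them on the array and 9 of them the genes above. The lists were chosen with earlier results of these data known. Their shares are therefore descriptive, and an excess over the share of all genes is not evidence about the pathway. At the low dose against control 20 of 88 measured genes (22.7%) were at least 2-fold higher and 0 lower, with a median of 0.14, beside 2.49% and 0.668% of all genes. For the high dose against control 4 of 89 (4.49%) were higher and 2 (2.25%) lower, with a median of 0.00, beside 0.849% and 0.152%. Between the doses 1 of 92 was higher at the high dose and 14 (15.2%) were lower, with a median of -0.23, beside 0.464% and 1.47%. Under normexp 12 of the 20, 0 of the 4, 1 of the 2, 0 of the 1 and 9 of the 14 remained past 2-fold, and the gene that remained lower at the high dose against control was Ccn2.

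TGF-beta target genes had the highest count of genes past 2-fold at the low dose, in lists of unequal size chosen with earlier results known. Of 17 measured, 9 were at least 2-fold higher at the low dose than in control and 0 lower, with a median of 1.18 (log2), and 6 of the 9 stayed past 2-fold with normexp. Col1a1, a chain of collagen I, read 203.0 units in control, 1884 at the low dose and 279.5 at the high dose. It stood at 3.21 at the low dose against control, and a second probe above background gave 2.18. Fn1, the matrix protein fibronectin, read 638.7 units in control, 2614 at the low dose and 735.7 at the high dose. Col3a1, a fibrillar collagen, stood at 2.15 and Timp1, an inhibitor of matrix proteases, at 1.77 at the low dose. All 4 genes were high on the low-dose array and within 2-fold of control on the high-dose array.

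Of the same 17 target genes, 2 were at least 2-fold higher at the high dose than in control, Klf10 at 1.16 and Tagln at 1.14, and 0 lower, with 10 above 0, 7 below and a median of 0.20. Klf10 is an early transcription factor induced by TGF-beta, and Tagln is a smooth muscle protein. Both fell short of 2-fold with normexp, at 0.83 and 0.90. Set against the low dose, 6 of 18 target genes were at least 2-fold lower on the high-dose array and 0 higher, with a median of -0.49, and Col1a1 stood lowest of these at -2.75, Fn1 at -1.83, Col3a1 at -1.82 and Ltbp2 at -1.70.

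The low-dose array also carried more signal of fibroblast, macrophage and fat cell markers. The 5 fibroblast and pericyte markers above background were all higher there than in control, 3 of them at least 2-fold, with a median of 1.02, and the list, which includes Col1a1, summed to 1723 units in control, 4762 at the low dose and 2197 at the high dose. Macrophage markers summed to 2297, 5008 and 2342 units in the same order, and 5 of 6 were higher at the low dose than in control. Csf1r was lower there, at -0.28 (log2), while a second probe of it gave 0.41. White adipocyte markers summed to 214.4, 1900 and 1379 units in that order, and brown adipocyte markers to 621.3, 6817 and 2280. The white fat markers Plin1 and Lep and the brown fat markers Dio2 and Elovl3 were not above background on any array. Ucp1, which defines brown fat, read 37.6 units in control, 2190 at the low dose and 557.1 at the high dose. Of the 4 papilla and thin limb markers, 3 were at least 2-fold higher than control at each dose. Urothelium markers summed to 227.1 units in control, 1122 at the low dose and 787.1 at the high dose. Of these 5 markers, 2 were above background in control and 4 at each dose. The part of these cell types in the values of the matrix genes and of Ccn1 was not tested.

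Podocytes, endothelium and mesenchymal cells are known sources of Ccn2 in kidney. Podocyte markers, 6 of 7 above background, summed to 2191 units in control, 1908 at the low dose and 1753 at the high dose, and 0 of 6 differed by 2-fold. Endothelial markers summed to 3641, 3584 and 3327 units in the same order. On the high-dose array, 5 of 6 podocyte markers and 3 of 5 endothelial markers above background were lower than in control. Of 5 fibroblast and pericyte markers, 4 were higher there and Pdgfrb was lower, at -0.25 (log2), the list median being 0.33. All 4 vascular smooth muscle markers above background were higher there. That list summed to 392.2 units in control, 734.2 at the low dose and 808.1 at the high dose. The part of these cells in the Ccn2 value was not tested.

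Among ligands and latent complex genes, 5 of 14 were at least 2-fold higher at the low dose than in control and 0 lower, with a median of 0.48. Inhba, the activin A subunit, read 28.7 units in control, 116.7 at the low dose and 25.6 at the high dose. Ltbp4, a latent TGF-beta binding protein, stood at 1.79 at the low dose and 1.10 at the high dose against control, Ltbp2 at 1.38 at the low dose, and Gdf15, a stress-induced member of the family, at 1.37 at the low dose. With normexp 1 of these 5 stayed past 2-fold, Ltbp4 at 1.05, with Inhba at 0.95, Gdf15 at 0.72 and Ltbp2 at 0.49. In the high-dose comparison with control 1 of 15 was higher, Ltbp4, and 1 lower, Itgb8 at -1.03, a subunit of an integrin that activates latent TGF-beta. Neither stayed past 2-fold with normexp, which gave 0.55 for Ltbp4 and -0.58 for Itgb8. Against the low dose, 3 of 15 were lower at the high dose and 0 higher, Inhba at -2.19, Ltbp2 at -1.70 and Gdf15 at -1.06. Of these, Inhba alone stayed past 2-fold with normexp, at -1.15, with Ltbp2 at -0.74 and Gdf15 at -0.67. Tgfb3, the remaining TGF-beta isoform, read 26.4 units in control, 34.7 at the low dose and 33.0 at the high dose.

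The measured genes of the signal-transducing layer showed smaller differences, but not all of the layer was measured. Of 14 receptors on the array 9 were measured. Of these, 0 reached 2-fold in any comparison, with values against control from -0.63 to 0.79 at the low dose and from -0.62 to 0.52 at the high dose. The highest was Eng, an endothelial coreceptor, at 67.7 units in control, 116.7 at the low dose and 97.1 at the high dose. Of 7 Smads on the array, Smad1, Smad5 and Smad7 were above background on all arrays and 0 of these reached 2-fold. Smad3 was not above background on any array, Smad2 was so at the high dose alone and Smad4 at the low dose alone. These values thus do not describe Smad2 and Smad3, which the type I receptor phosphorylates, or Smad4. Among 12 Smad regulators, 1 was at least 2-fold higher at the low dose, Tgif1, a corepressor of Smads, at 1.21 (0.90 with normexp), and 0 passed at the high dose against either other array.

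Genes of the BMP branch, to which Bmp7 belongs, showed 2 of 12 measured ligands and antagonists at least 2-fold higher at the low dose than in control and 0 lower. Bmp2, a ligand of this branch, read 33.3 units in control, 73.3 at the low dose and 44.0 at the high dose, a difference of 1.14 at the low dose (0.46 with normexp). The high dose against control had 1 of 12 higher, Bmp4, which read 233.9 units in control, 235.4 at the low dose and 471.9 at the high dose. Bmp4 was at 1.01 against control and 1.00 against the low dose, and at 0.89 and 0.87 with normexp. High dose against low dose had 1 of 14 higher, Bmp4, and 1 lower. The BMP target genes, Id factors among them, had 0 of 5 past 2-fold. All 5 were above control at the high dose, by 0.04 to 0.46, beside 43.6% of all genes. With normexp these differences ran from -0.03 to 0.36, so not all stayed above 0.

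Of 15 measured YAP and TAZ target genes, 1 was at least 2-fold higher at the low dose than in control, Ccdc80 at 1.17, and 0 lower. On the high-dose array against control 0 were higher and 1 lower, Ccn2, with a median of -0.08. Between the doses 2 were lower at the high dose, Ccn2 and Ccdc80 at -1.0, and 0 higher. With normexp neither was past 2-fold, and Ccdc80, at -0.91, was also short of it after quantile normalization, at -0.98. Of the other matricellular genes, 3 of 5 were at least 2-fold higher at the low dose than in control and 0 lower, namely Spp1 (osteopontin) at 2.11, Smoc2 at 1.47 and Sparc at 1.16. The high-dose array had 0 of 5 past 2-fold against control and 2 lower than at the low dose, Spp1 at -1.48 and Smoc2 at -1.45.

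**Figure D4:**
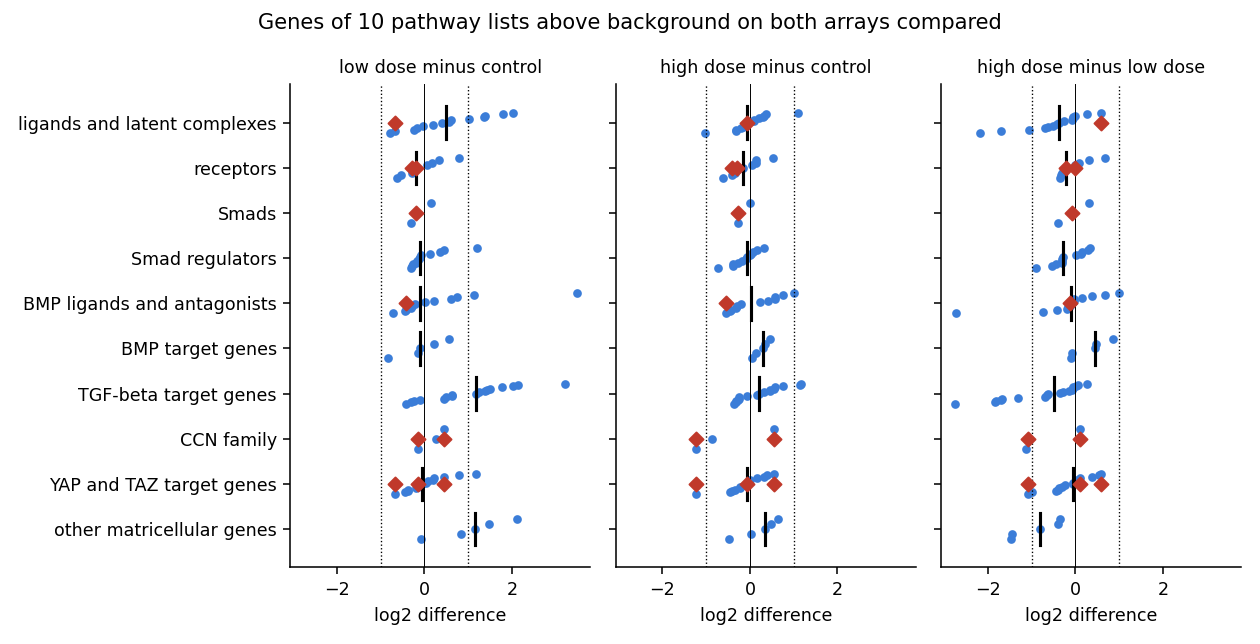
Differences (log2) of the genes of 10 pathway lists for low dose against control, high dose against control and high dose against low dose. Each point is a gene above background on both arrays, diamonds are the 9 genes described where measured, black bars are medians of lists with at least 5 genes, and dotted lines mark 2-fold. TGF-beta target genes spread to the right at the low dose with a median of 1.18, and at the high dose against control the lowest point is Ccn2 at -1.24.

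The direction of most of the 9 genes held under the ways of processing tried, some of which could hardly change it. For Ccn2, Ccn1, Tgfbr1, Smad7 and Bmp7 all settings kept the sign in every comparison, and Tgfb2, by its representative probe, did so too. For Tgfbr2 the sign changed in the comparison of the doses alone, where values ran from -0.23 to 0.07. Thbs1, which was not above background, changed sign in all 3 comparisons, and Tgfb1 did so at the high dose against control, from -0.08 to 0.42.

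**Figure D5:**
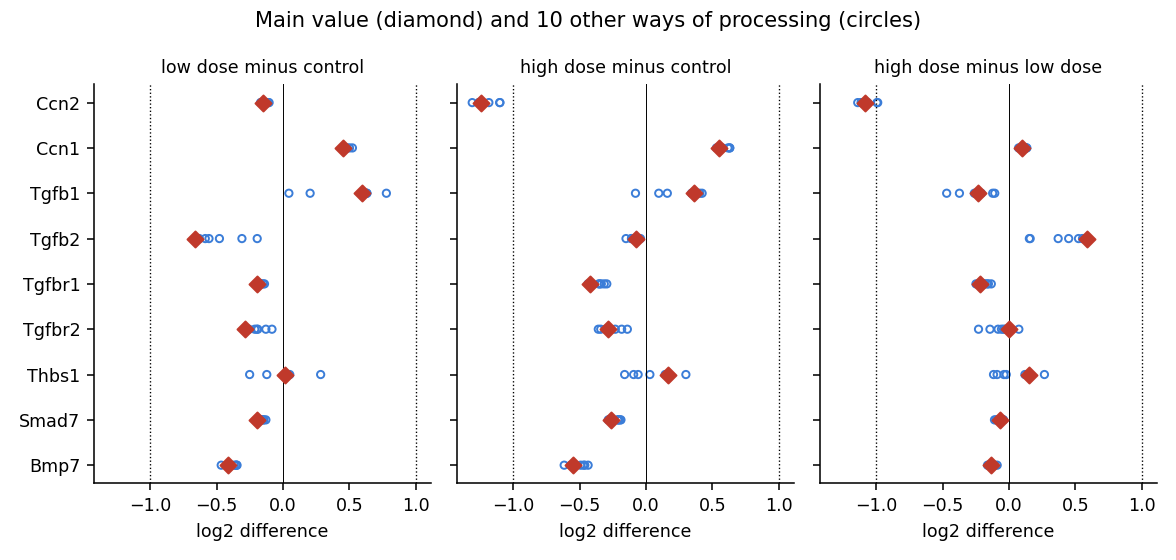
Log2 differences of the 9 genes for low dose against control, high dose against control and high dose against low dose. Diamonds are the values reported, circles those of 10 other ways of processing, and dotted lines mark 2-fold. Ccn2 at the high dose against control lies between -1.31 and -1.10 under all of them. The circles of Thbs1 spread across 0 in every comparison. Those of Tgfb1 do so at the high dose against control alone, and those of Tgfbr2 between the doses alone.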

How the data were processed

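Each array held Cy3-labelled cRNA from 1 pool of kidney RNA on an Agilent rat design, per the labels. Per the file headers, the deposited spot intensity at 532 nm was read with GenePix Pro 6.1.0.4, although Agilent Feature Extraction is the tool named in the submitters' processing notes. Per the file headers, a background of 39 (control, high dose) or 40 (low dose) was subtracted. The deposited signal-to-noise ratio and flag were used as a score, and saturated pixels are a percent in the deposited files. A value table on the log2 scale was deposited too, with a scaling that the sources used here do not give. A mouse design is named in the high-dose file's header, but its spots carry the same annotation as the other arrays.

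Control spots, bright spots not found by the software (control 6, low dose 5, high dose 6) and spots whose net mean and median differed by over 1.5-fold (166, 139 and 80) were left out. Spots of a probe were averaged, scaled to an equal 75th percentile, floored at 1 and put on the log2 scale. Genes were named through RefSeq (GRCr8), and each gene took the probe above background on most arrays and, among equals, the brightest one. A ratio given where 1 array was not above background used the measured value of that array and is not a bound. The count of genes past 2-fold replaced a test. The procedure was tested on simulated data. Depth has no meaning for arrays, and their number limits the precision. Alternatives were other scalings, normexp (limma 3.58.1, offset 50), pixel medians, spot filters, the authors' deposited table, other gene summaries and a correction for local position, the last chosen after seeing the data. Named genes were the 9 genes and, per list and comparison, up to 4 past 2-fold by size that kept their direction under normexp and quantile normalization. The genes and the lists were chosen with earlier results of these data known. Some genes of the lists are counted but not reported by name here.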

Additional observations from a re-analysis of the deposited data

How the results depend on the processing

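No paired analysis was possible because each group has 1 array, and for the same reason no replicate could be left out. Of the values of the 9 genes under the alternatives, 229 moved by less than the median SD between paired spots (0.12, 0.12 and 0.08 log2 for the 3 comparisons) and 41 by more, most of them for the dim Tgfb1, Tgfb2, Tgfbr2 and Thbs1. Some alternatives could hardly move these genes, so the larger count is partly fixed in advance. The mean over a gene's probes left all 9 unchanged, and keeping non-uniform spots could move them only through the scaling. Ccn2 at the high dose moved to -1.10 (both normexp settings) against control, and to -0.995 and -0.99 against the low dose. Normexp with 75th percentile scaling, and with quantile normalization, lowered the counts of genes past 2-fold. They became 133 and 136 higher and 23 and 24 lower (242 and 65 as reported) at the low dose against control. They became 37 and 36 higher and 2 and 3 lower (84 and 15) at the high dose against control, and 19 and 18 higher and 70 and 66 lower (47 and 149) for high against low dose. Without a filter on dim probes they were 948 and 1702, 1045 and 952, and 1598 and 690. Genes lower at the high dose against control numbered 31 with non-uniform spots kept and 29 by the authors' deposited table. The median of ligand and latent complex genes at the low dose against control was 0.19 and 0.25 with normexp and 0.28 without the filter. For high against low dose it was -0.19 and -0.20 with normexp, -0.28 with pixel medians and -0.15 without the filter. TGF-beta targets had 0.64 and 0.64 with normexp at the low dose against control. For high against low dose they had -0.31 and -0.31 with normexp, -0.63 with the mean over probes and -0.63 without the filter. BMP targets, at -0.11 at the low dose against control, changed sign to 0.065 with quantile normalization and 0.0185 with normexp and quantile normalization. At the high dose against control they had 0.13 and 0.12 with normexp and 0.17 with the position correction. Against the low dose they had 0.30 with quantile normalization, 0.099 and 0.094 with normexp and 0.32 by the authors' deposited table. Receptors had -0.02 by the authors' deposited table at the high dose against control, and -0.13 with the position correction and -0.10 without the filter against the low dose. YAP and TAZ targets had -0.14 with quantile normalization and -0.14 by the authors' deposited table for high against low dose. Other matricellular genes had 0.88 at the low dose against control and -0.21 for high against low dose without the filter. Signals near background, here Tgfb1, Thbs1 and 2 of the 3 Tgfb2 probes, limit what can be said of the ligands and the activator.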
